A study of Mus musculus with 4 samples.

Results

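A set of 10 genes was followed through the RNA-seq data of Npac knockout (KO) mouse embryonic stem cells, namely Npac itself, its demethylase partner Kdm1b, the main enzymes that write and erase methylation on lysine 36 of histone H3 (H3K36), and the H3K36me3 reader Psip1. They were chosen by gene name, as 10 of the 56748 genes listed in the deposited tables, where Npac appears under its current symbol Glyr1. All 10 were found, and each of them had enough reads to be tested. The cells were E14, a mouse embryonic stem cell line grown feeder-free on gelatin in serum medium with LIF. WT libraries (WT1 and WT2) came from E14 cells labelled wild type, and Npac KO libraries (KO1 and KO2) came from E14 cells in which Npac was targeted with CRISPR/Cas9, with 1 library from each of 2 knockout clones. The labels do not say whether the WT cells went through electroporation, puromycin selection and colony picking, or whether WT1 and WT2 were separate cultures, so p-values measure only the spread between these libraries. Total counts lay between 15850805 and 16965120 per library.

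Npac carries a PWWP domain, a fold that binds nucleosomes trimethylated on H3K36, and a dehydrogenase-like domain that is thought to lack enzyme activity. It binds Kdm1b, also called LSD2, which removes methyl groups from H3K4 within gene bodies, and it stimulates that activity on nucleosomes. H3K36 methylation is laid down in transcribed chromatin. Setd2 travels with elongating RNA polymerase II and makes H3K36me3, Nsd1, Nsd2, Nsd3 and Ash1l make the dimethyl mark, and Kdm2a and Kdm2b, which also bind unmethylated CpG islands, remove it. Psip1, also called Ledgf, reads H3K36me3 through a PWWP domain of its own and binds splicing factors.

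The guide plasmids of the study are named for exon 3 of Npac, so that exon is shown first. In GENCODE M21 on build GRCm38 it is exon 3 of the 16 exons of both protein-coding transcripts of Glyr1 (Glyr1-201 and Glyr1-202), on the minus strand, at chr16:5047734-5047813. All 80 of its bases are coding, and 80 leaves a remainder of 2 when divided by 3, so a transcript without this exon would change reading frame. It is printed 5′ to 3′ as in the transcript, all in lower case because the edited positions were not analysed here. The guide sequences listed in the study do not occur within these 80 bases on either strand.
Glyr1 exon 3: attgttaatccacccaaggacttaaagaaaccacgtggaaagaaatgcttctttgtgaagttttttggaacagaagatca

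In the tables each library has 1 number for the whole Npac gene, so reads from exon 3 cannot be separated from reads of the other exons. Glyr1 (ENSMUSG00000022536) had 3961 reads in WT1 and 3115 in WT2, against 744 in KO1 and 888 in KO2. Scaled to equal library size by TMM factors (CPM), these levels were 259 and 178 in WT and 47.9 and 51.3 in KO libraries, so both KO libraries lay below both WT libraries. Against the WT mean, 21.9% of the level was left in KO1 and 23.4% in KO2. By contrast, the study found Npac mRNA fully lost by qPCR and no Npac protein by Western blot in either clone. The forward qPCR primers it lists for Npac lie within exon 3, while the count here covers the whole gene. The log2 fold change of Npac KO over WT was -2.14 (standard error 0.23, 95% interval -2.67 to -1.61, Benjamini-Hochberg adjusted p = 0.00174 over 18157 genes in the quasi-likelihood test of edgeR), a 4.41-fold fall. A gene was called when its adjusted p was under 0.05 and its fold change over 1.5. At these thresholds 10.7% of all tested genes were called lower and 11% higher, 21.7% in all. Of the tested genes, 691 had a more negative log2 fold change than the targeted gene, and 628 of these were called.

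**Figure D1:**
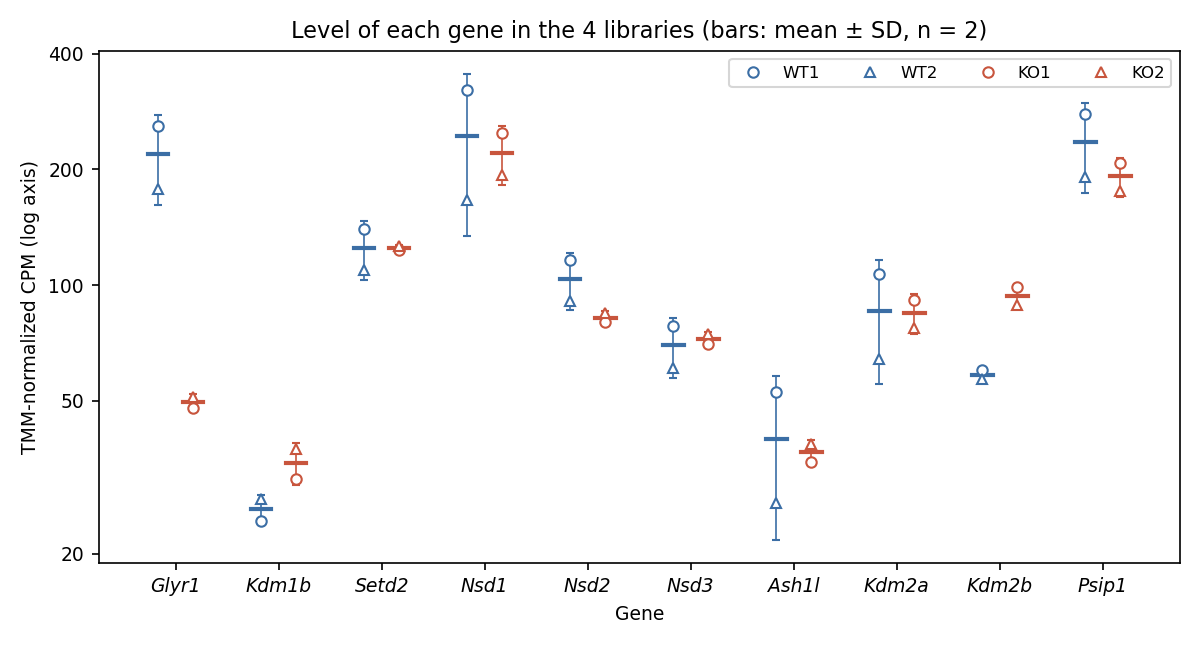
Level of each of the 10 genes in the 4 libraries, as TMM-normalized CPM on a log axis. Blue symbols are WT and red symbols are Npac KO libraries (circles for library 1, triangles for library 2), and bars give the mean ± SD (n = 2). Glyr1 sits at 47.9 and 51.3 CPM in the KO libraries, below both WT libraries, and Kdm2b sits at 98.8 and 89.0 CPM, above both.

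Across the 10 genes, Glyr1 was called lower, Kdm2b was called higher, and the other 8 did not pass the test, beside 10.7% of all tested genes called lower and 11% called higher. The libraries of the genotypes did not overlap in 4 of the 10 genes, with KO libraries higher in Kdm1b and Kdm2b and lower in Glyr1 and Nsd2. Among all genes tested, 65.7% did not overlap, with 33.2% higher and 32.5% lower in both KO libraries. The median absolute log2 fold change was 0.22 over the 10 genes and 0.55 over all genes tested. The genes tested include many with far fewer reads than the 10, which had at least 373 per library. The part of read number in this difference was not tested. The genotypes' libraries overlapped in the remaining 6 genes, which are Setd2, Nsd1, Nsd3, Ash1l, Kdm2a and Psip1.

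**Figure D2:**
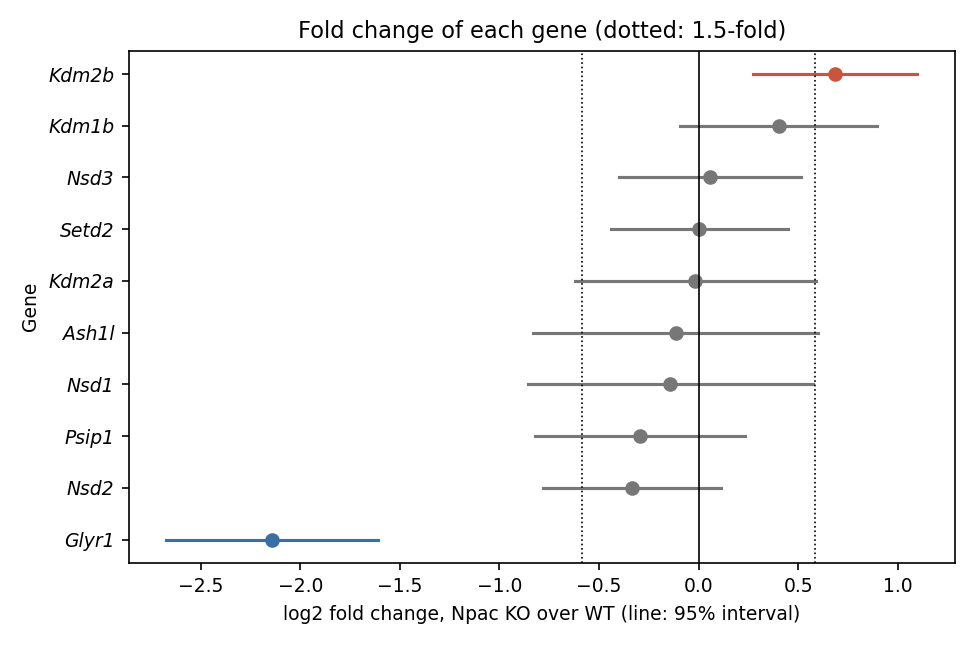
Log2 fold change of Npac KO over WT for the 10 genes, with its 95% interval from edgeR's quasi-likelihood fit. Blue and red mark the genes called lower and higher, grey the genes not called, and dotted lines a fold change of 1.5. Only the intervals of Glyr1 (-2.67 to -1.61) and Kdm2b (0.27 to 1.10) exclude 0.

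The start region between Glyr1 and its neighbour is shown next, because the neighbour is transcribed from the other side of the same short interval. Ubn1, which encodes a subunit of the HIRA histone chaperone complex, is transcribed away from Glyr1 on the other strand, with 194 bases between the annotated ends of the genes in the deposited tables. The 300-base window of RefSeq on GRCm38.p6, from 250 bases before to 50 bases after the start of Glyr1, lies at chr16:5049861-5050160 on the minus strand. It holds 41 CpG dinucleotides, against a median of 7 over the 32851 windows of the RefSeq table. Capitals mark 2 copies of the E-box CACGTG, 1 copy of the cyclic AMP response element TGACGTCA and 1 copy of the GC box GGGCGG. Searched on both strands, these letters occur at least once in 7.15%, 1.79% and 35.7% of all windows, with no overlap between the copies in this window. These shares are over windows of any base composition. G and C make up 70.3% of the Glyr1 window, against a median of 52.7% over all windows.
Glyr1 start region: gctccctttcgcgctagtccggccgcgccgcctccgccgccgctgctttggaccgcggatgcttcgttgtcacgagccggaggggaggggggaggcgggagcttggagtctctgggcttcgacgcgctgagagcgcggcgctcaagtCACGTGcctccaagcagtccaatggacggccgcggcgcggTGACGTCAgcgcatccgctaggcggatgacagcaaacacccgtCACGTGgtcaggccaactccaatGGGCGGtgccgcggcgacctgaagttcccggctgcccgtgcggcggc

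Ubn1 had 92.7 and 72.2 CPM in WT and 59.4 and 66.7 CPM in KO libraries. The change was -0.39 on the log2 scale (edgeR adjusted p = 0.2). Ubn1 was thus not called, although its KO libraries both lay below its WT libraries, as in 32.5% of all genes tested. On the other side, Rogdi lies on the same strand as Glyr1 and begins 356 bases past the 3′ end of Glyr1. Rogdi had 39.9 and 63.4 CPM in WT and 52.1 and 69.4 CPM in KO libraries, with overlapping genotypes and a log2 fold change of 0.23. Of the 6 tested genes nearest to Glyr1, 3 on each side, none was called, beside 21.7% of all genes tested. The other 4 were Smim22, the pseudogene Dnaaf8, Ppl and Sec14l5. Ppl, which encodes the junction protein periplakin, came nearest to a call (log2 fold change 0.81, edgeR adjusted p = 0.0685). Its KO libraries both exceeded its WT libraries, as did those of 33.2% of all genes tested. No other gene in the deposited tables overlaps the span of Glyr1.

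Kdm1b (ENSMUSG00000038080, chromosome 13), the demethylase that Npac binds, had 373 reads in WT1 and 485 in WT2, against 488 in KO1 and 649 in KO2. Its normalized levels were 24.4 and 27.8 CPM in WT libraries and 31.4 and 37.5 CPM in KO libraries. Both KO libraries lay above both WT libraries, but the gap from WT2 to KO1 was smaller than the distance between the KO libraries, and the log2 fold change of 0.40 (edgeR 95% interval -0.09 to 0.90, edgeR adjusted p = 0.211) did not pass. The interval reaches from a 0.937-fold to a 1.86-fold level in Npac KO cells. Kdm1a, the other demethylase of this type and a subunit of the CoREST and NuRD complexes, was at 0.34 (log2 fold change, edgeR adjusted p = 0.197) and was not called either. The span of Kdm1b overlaps the ends of Dek and Tpmt on the opposite strand in the deposited tables, and 505 bases of a Kdm1b transcript in GENCODE are shared with Dek. Dek had between 3149 and 4089 reads per library, several times more than Kdm1b. How the counting treated strand is not given in the sources used here.

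Measured per length, the balance between the RNA of Npac and that of its partner changed from several-fold to near equality. The deposited FPKM of Glyr1 was 6.94 times that of Kdm1b in WT1, 4.20 times in WT2, 0.997 times in KO1 and 0.895 times in KO2. This ratio joins the fall of Glyr1 with the level of Kdm1b, which did not pass the test. It counts all RNA left from the targeted gene and says nothing of protein, and the study found no Npac protein in either clone. Against Psip1, the other PWWP reader of the list, Glyr1 stood at an FPKM ratio of 0.562 and 0.563 in WT1 and WT2 and of 0.139 and 0.176 in KO1 and KO2.

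Kdm2b (ENSMUSG00000029475, chromosome 5), an H3K36me2 demethylase that also brings the variant Polycomb complex PRC1.1 to CpG islands, was the gene that rose. Its reads numbered 918 and 993 in WT1 and WT2, and 1536 and 1540 in KO1 and KO2. In normalized terms these were 60.1 and 56.8 CPM in WT and 98.8 and 89.0 CPM in KO libraries, with the 2 libraries of each genotype close to each other and the genotypes apart. The log2 fold change was 0.68 (standard error 0.18, 95% interval 0.27 to 1.10, edgeR adjusted p = 0.0323), a 1.61-fold rise. In fold terms the interval runs from 1.21 to 2.14, so its lower end lies below the fold threshold of 1.5. The call was lost without the KO1 library (adjusted p = 0.33) and without the KO2 library (adjusted p = 0.174), where the lone KO library is assumed to vary like the WT pair. It was also lost in a limma-trend fit of FPKM (adjusted p = 0.0736 and 0.0664). In these 4 fits the value lay between 0.59 and 0.77. Of all genes tested, 3772 had a more positive log2 fold change.

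Kdm2b is transcribed from separate starts, and the deposited count sums over them. In GENCODE M21 the transcript Kdm2b-202 begins at the upstream starts and encodes 1309 residues, while Kdm2b-201 begins far downstream and encodes 776 residues. The long form carries the JmjC demethylase domain, and the known short form lacks it, so a gene-level count cannot say which of them rose. A start region for each is printed below from RefSeq on GRCm38.p6, both on the minus strand of chromosome 5, with the GC box GGGCGG or its reverse complement CCGCCC in capitals. The upstream window, at chr5:122989050-122989349, holds 28 CpG dinucleotides and 1 GC box. The downstream window, at chr5:122900318-122900617, holds 47 CpG dinucleotides and 6 GC boxes, of which some overlap each other.
Kdm2b upstream start region: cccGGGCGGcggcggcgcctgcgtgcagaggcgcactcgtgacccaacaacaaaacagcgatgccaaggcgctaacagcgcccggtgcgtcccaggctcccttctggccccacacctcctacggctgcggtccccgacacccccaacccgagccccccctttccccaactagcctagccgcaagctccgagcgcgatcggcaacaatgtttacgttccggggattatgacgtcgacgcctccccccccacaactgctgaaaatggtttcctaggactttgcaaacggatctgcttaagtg
Kdm2b downstream start region: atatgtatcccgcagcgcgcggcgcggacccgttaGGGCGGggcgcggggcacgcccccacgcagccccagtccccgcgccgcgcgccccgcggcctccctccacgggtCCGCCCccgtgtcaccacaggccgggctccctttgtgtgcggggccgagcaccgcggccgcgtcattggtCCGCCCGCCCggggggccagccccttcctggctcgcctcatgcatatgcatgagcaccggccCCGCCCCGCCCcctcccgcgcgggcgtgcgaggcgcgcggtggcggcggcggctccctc

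The 3′ part of Kdm2b overlaps Rnf34, which encodes a ubiquitin ligase and lies on the opposite strand, and 627 bases of their GENCODE transcripts are shared. Rnf34 moved the other way. Its count was 1233 in WT1 and 1219 in WT2, against 618 in KO1 and 740 in KO2, and it was called lower (log2 fold change -0.87, edgeR adjusted p = 0.0173). Whether reads in the shared stretch were counted to the right gene was not tested. The processed pseudogene Gm12397, identical to Kdm2b over 615 bases, had between 29 and 49 reads per library. Adding its reads to Kdm2b, a choice made after the data were seen, gave a log2 fold change of 0.67, and the gene was still called.

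Kdm2a (ENSMUSG00000054611, chromosome 19), the paralog of Kdm2b with the same domains, had 107 CPM in WT1 and 64.1 in WT2, against 91.6 in KO1 and 77.5 in KO2. Both KO libraries lay between the WT libraries. The log2 fold change was -0.02 (edgeR 95% interval -0.62 to 0.59, adjusted p = 0.972), and the interval reaches past a 1.5-fold change on both sides. Per length, Kdm2b had 0.746 and 1.18 times the FPKM of Kdm2a in WT1 and WT2 and 1.43 and 1.53 times in KO1 and KO2. In the WT libraries this ratio lay on either side of 1, and in both KO libraries it lay above 1.

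The enzyme that makes H3K36me3, Setd2 (ENSMUSG00000044791, chromosome 9), had 140 and 109 CPM in WT and 123 and 127 CPM in KO libraries. The KO values fell inside the WT range, and the log2 fold change was 0.0031 (edgeR 95% interval -0.44 to 0.45, adjusted p = 0.993). A change of more than 1.36-fold in either direction lies outside this interval. Relative to all genes tested, the median gene of chromosome 9 was at -0.198 in KO1 and -0.202 in KO2 against the WT mean on the log2 scale. These were the lowest chromosome medians in both KO libraries. With the median of its chromosome removed from each KO library the value of Setd2 was 0.20, which did not pass. No overlapping gene had more than 15 reads in any library.

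Among the dimethyl-transferases, Nsd1 (ENSMUSG00000021488, chromosome 13) was the most abundant, with 322 CPM in WT1 and 167 in WT2, against 248 in KO1 and 194 in KO2. The WT libraries differed 1.93-fold, and the KO libraries lay between them. Its log2 fold change was -0.14 (edgeR 95% interval -0.86 to 0.57, adjusted p = 0.77). Nsd2 (ENSMUSG00000057406, chromosome 5), which is also known as Whsc1, had 116 and 91.1 CPM in WT and 80.0 and 84.5 CPM in KO libraries. Neither KO library reached a WT library, and the log2 fold change was -0.33 (edgeR 95% interval -0.78 to 0.11, adjusted p = 0.245), which did not pass. The span of Nsd2 overlaps Nelfa, a subunit of the elongation factor NELF on the opposite strand, which had 1090 to 1954 reads per library. Ash1l (ENSMUSG00000028053, chromosome 3), the least abundant of the 10 genes per length, had 52.6 CPM in WT1 and 27.1 in WT2, against 34.7 in KO1 and 38.7 in KO2. Here too the WT libraries differed 1.94-fold and enclosed the KO libraries, and the log2 fold change was -0.12 (edgeR 95% interval -0.83 to 0.60, adjusted p = 0.817). The overlapping gene Dap3, on the opposite strand, had 1556 to 3208 reads per library.

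Nsd3 (ENSMUSG00000054823) lies on chromosome 8. It had 78.5 and 61.0 CPM in WT and 70.4 and 74.6 CPM in KO libraries, and its log2 fold change was 0.06 (edgeR 95% interval -0.40 to 0.51, adjusted p = 0.859). The median gene of chromosome 8 was higher than the WT mean by 0.51 in KO1 and 0.52 in KO2 on the log2 scale. With the median of each chromosome removed from each KO library, the log2 fold change of Nsd3 became -0.45 (adjusted p = 0.144), a change of sign that did not pass the test. The part of the chromosome in the value was not tested. None of the other 9 genes lies on chromosome 8 or 11, the chromosomes with the highest medians in both KO libraries.

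The split of expression per length among the 3 Nsd genes was computed next. Nsd1 made up 61.0% and 50.9% of their summed FPKM in WT1 and WT2 and 61.0% and 53.5% in KO1 and KO2. The share of Nsd2 was 22.9% and 29.0% in WT and 20.4% and 24.3% in KO libraries, and Nsd3 made up the rest. For each of the 3 genes the ranges of the genotypes overlapped.

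Psip1 (ENSMUSG00000028484, chromosome 4), the reader that binds the same mark as Npac, had 279 and 192 CPM in WT and 208 and 176 CPM in KO libraries. KO1 lay inside the WT range and KO2 below it, and the log2 fold change was -0.29 (edgeR 95% interval -0.82 to 0.23, adjusted p = 0.383). Its overlapping neighbour Snapc3, on the opposite strand, was counted 664 and 796 times in WT and 404 and 440 times in KO libraries and was called lower (log2 fold change -0.79, edgeR adjusted p = 0.0258). The processed pseudogene Gm15773, which is 95.8% identical to Psip1, had 0 reads in each of the 4 libraries.

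The spread between the WT libraries set the width of several intervals. WT1 was above WT2 in 9 of the 10 genes, Kdm1b being the exception, against 49.1% of all genes tested. The 10 genes have listed lengths of 5082 to 17483 bases, and of the 6170 tested genes at least as long as the shortest of them 63.0% were higher in WT1, against 41.9% of shorter genes. The part of gene length in these values was not tested. Without WT1 the log2 fold changes of Nsd1, Ash1l and Kdm2a became 0.38, 0.41 and 0.37, and without WT2 they were -0.55, -0.52 and -0.34, none of which was called. Without WT2 the adjusted p was under 0.05 for Nsd1 (0.0192), Ash1l (0.026), Nsd2 (0.0201, log2 fold change -0.50) and Psip1 (0.0167, log2 fold change -0.54), but each change was less than 1.5-fold. Without WT1 the values of Nsd2 and Psip1 were -0.18 and -0.03. The log2 fold change of Glyr1 was -1.87 without WT1 and -2.39 without WT2, and Glyr1 was called with any 1 of the 4 libraries left out.

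**Figure D3:**
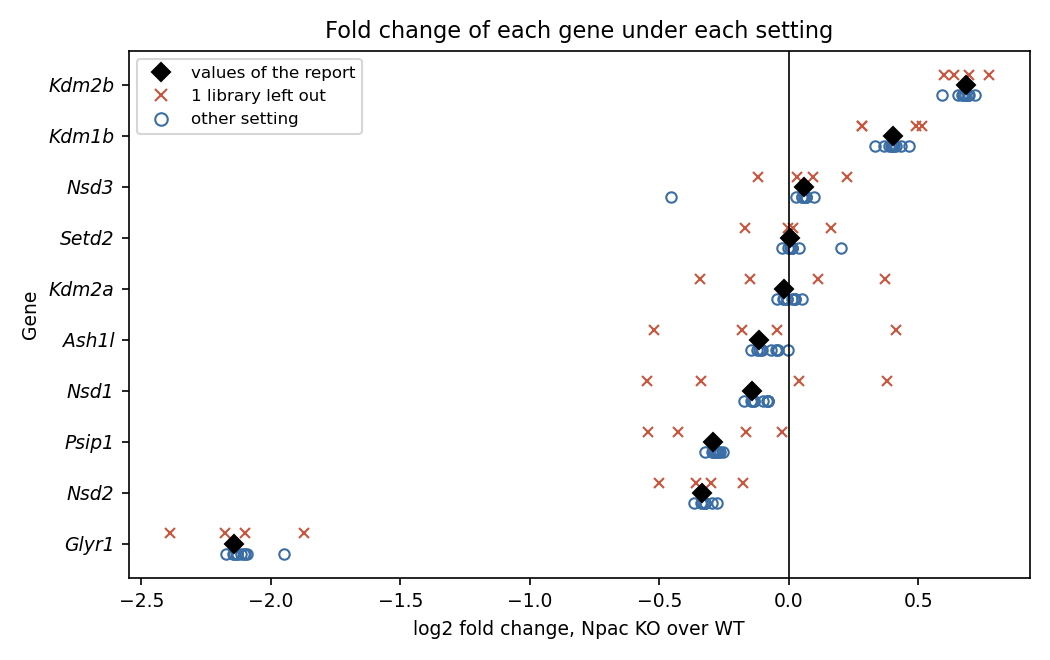
Log2 fold change of Npac KO over WT for the 10 genes under each setting. Black diamonds are the values of the report, red crosses leave out 1 library each, and open blue circles are other settings. Glyr1 stays between -2.39 and -1.87, Kdm2b stays between 0.59 and 0.77, and Nsd1, Ash1l and Kdm2a fall on both sides of 0 when a WT library is left out.

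The order of the levels is given per length, from the deposited FPKM. In WT cells Psip1 was highest at 46.0 ± 12.1 FPKM, followed by Glyr1 at 25.8 ± 6.80, Nsd1 at 13.9 ± 6.25 and Setd2 at 11.5 ± 2.01 FPKM (SD, n = 2 each). Below them came Nsd2, Kdm2a, Kdm2b, Kdm1b and Nsd3, whose means lay between 6.12 and 4.27 FPKM, and Ash1l at 2.66 ± 1.21 FPKM. Neighbours in this order whose libraries overlapped were Nsd1 and Setd2, Nsd2 and Kdm2a, Kdm2a and Kdm2b, and Kdm1b and Nsd3. In Npac KO cells Psip1 was still highest at 37.4 ± 4.78 FPKM and Ash1l still lowest at 2.45 ± 0.162 FPKM. Glyr1, second in WT cells, was at 5.83 ± 0.227 FPKM in KO cells, in place 6 of the order. There its libraries overlapped those of Kdm1b, just above it at 6.20 ± 0.714 FPKM, and of Kdm2a, just below it at 5.79 ± 0.743 FPKM. Kdm2b moved from place 7 at 5.34 ± 0.218 FPKM to place 4 at 8.55 ± 0.721 FPKM.

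**Figure D4:**
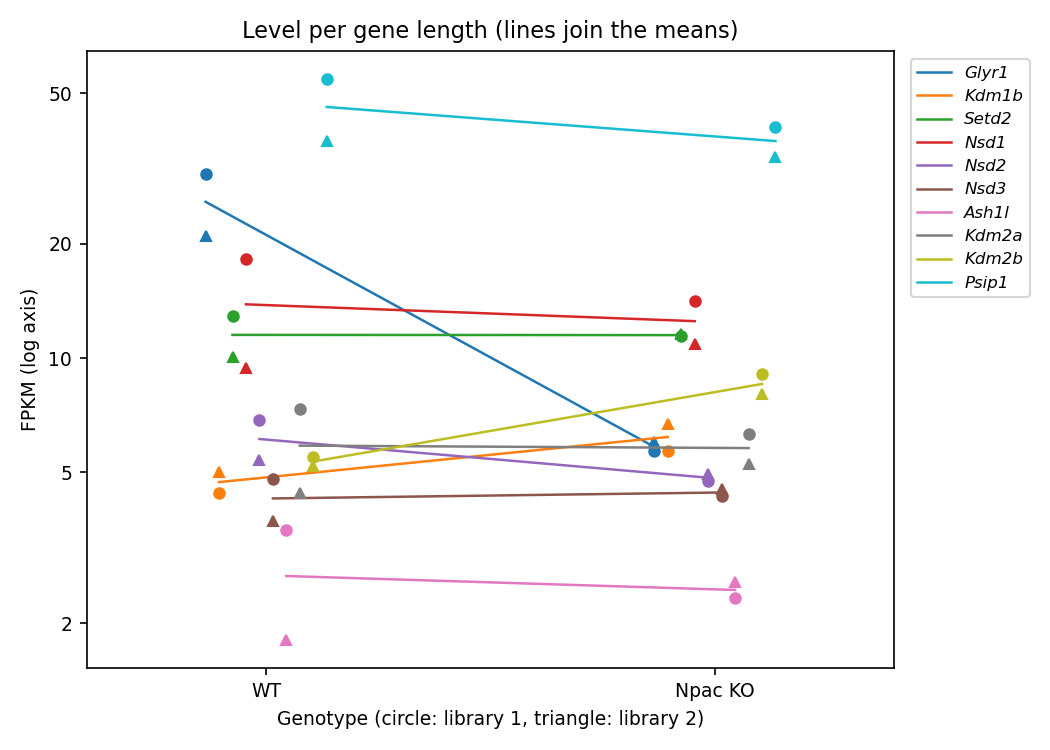
Deposited FPKM of the 10 genes by genotype on a log axis, with circles for library 1, triangles for library 2 and lines that join the means of the genotypes. Glyr1 drops from 25.8 to 5.83 FPKM, to the level of Kdm1b and Kdm2a, while Psip1 stays highest and Ash1l lowest in both genotypes.

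Around these genes stands a wider list of the H3K36 pathway, with writers, erasers, readers and partners, of which 52 of 53 genes were tested. The gene left out was the demethylase Kdm4d, with 3 to 8 reads per library. Of the 52 genes 6 were called higher and 5 lower, beside 11% and 10.7% of all genes tested, and the median log2 fold change was -0.0014, against 0.0015 over all genes tested. The 1 methyltransferase outside the 10 genes was not called, and neither was any of the 5 further demethylases tested. The median log2 fold change of these 5 was -0.21.

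Of 19 readers other than Psip1, 4 were called higher and 3 lower, beside 11% and 10.7% of all genes tested. Whether readers differ from the other classes was not tested. Brpf3, a PWWP scaffold of an acetyltransferase complex, had 48.5 and 25.9 CPM in WT and 153 and 146 CPM in KO libraries (log2 fold change 2.01, edgeR adjusted p = 0.00498). Morf4l1, the chromodomain protein MRG15, had 117 and 86.9 CPM in WT and 350 and 318 CPM in KO libraries (1.71, adjusted p = 0.0029), and its log2 fold change was 1.53 with its matched processed pseudogenes added. Dnmt3a, the de novo DNA methyltransferase whose PWWP domain binds H3K36me2, had 73.7 and 56.3 CPM in WT and 176 and 219 CPM in KO libraries (1.60, adjusted p = 0.00394). Each of these genes was called in every setting and with each library left out.

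Msh6, the mismatch repair protein with a PWWP domain, rose from 482 and 423 CPM to 841 and 720 CPM (log2 fold change 0.79, edgeR adjusted p = 0.0265). Among the readers that fell, Pwwp2b, a PWWP protein of deacetylase complexes, had 27.4 and 22.0 CPM in WT and 6.05 and 6.82 CPM in KO libraries (-1.94, adjusted p = 0.00442). Zcwpw1, a reader known from meiosis, had 68.1 and 81.5 CPM in WT and 34.8 and 44.5 CPM in KO libraries (-0.92, adjusted p = 0.0212). Zmynd11, which reads H3K36me3 on histone H3.3, had 56.3 and 40.2 CPM in WT and 24.0 and 27.5 CPM in KO libraries (-0.91, adjusted p = 0.0309). Pwwp2b was called in every setting and with each library left out. Msh6, Zcwpw1 and Zmynd11 were not called with either KO library left out, and Zmynd11 also not in the limma-trend fits of FPKM.

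Among 16 partners of the enzymes and readers, Skp1 was called higher and Rnf2 lower, beside 21.7% of all genes tested called in either direction. Both belong with Kdm2b, Skp1 as the adaptor that binds its F-box and Rnf2 as the ubiquitin ligase of PRC1 complexes. Skp1, on chromosome 11, had 171 and 204 CPM in WT and 463 and 378 CPM in KO libraries (log2 fold change 1.16, adjusted p = 0.0087). The chromosome 11 median, again relative to all genes tested, was 0.51 in KO1 and 0.48 in KO2. With chromosome medians removed the value for Skp1 was 0.67 and no longer passed. Rnf2 had 155 and 134 CPM in WT and 94.8 and 96.9 CPM in KO libraries (-0.59, adjusted p = 0.0495), just past both thresholds, and it was not called in 9 of the 14 other settings, either through its adjusted p (0.0524 with DESeq2) or through its fold change. The other 14 partners were not called.

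**Figure D5:**
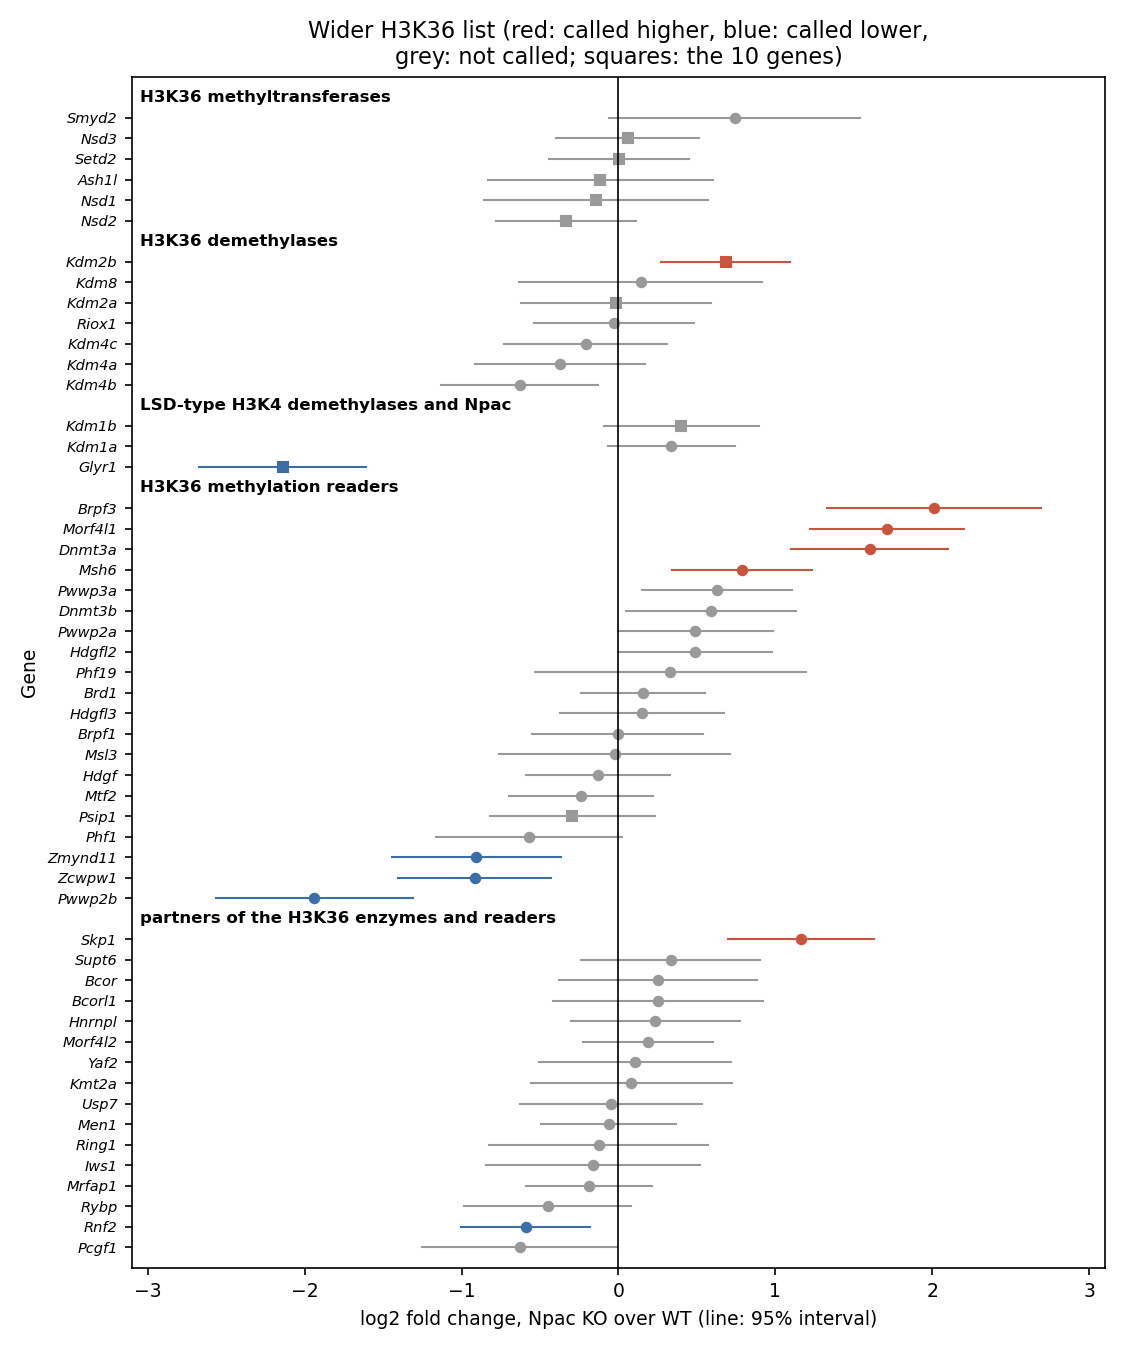
Log2 fold change of Npac KO over WT, with 95% intervals, for the 52 tested genes of the wider H3K36 list by class. Red marks genes called higher, blue genes called lower and grey genes not called, and squares are the 10 genes of the report. The 7 called readers, of 20, run from Brpf3 at 2.01 to Pwwp2b at -1.94.

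The genes whose levels over the 4 libraries were most like those of Glyr1 were found by the distance between log2 CPM values centred on each gene's mean, among 11684 other genes with a mean of at least 100 reads. The nearest was Zfp36l1, an mRNA decay factor, with 168 and 108 CPM in WT and 29.9 and 33.4 CPM in KO libraries. Its distance from Glyr1 was 0.0845, against a median of 2.17 over all candidates. Next came Tdrd3, a Tudor-domain protein, Hsd17b11, a steroid dehydrogenase, Lmna, which encodes lamin A, and Bhlhe40, a transcription factor, at distances of 0.128 to 0.185. The measure picks genes with the same fall and the same order of the WT libraries as Glyr1, so these shared features are no result.

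The markers of the labelled cell type were present in all libraries. The 7 embryonic stem cell markers, Pou5f1, Sox2, Nanog, Zfp42, Esrrb, Dppa5a and Utf1, summed to 4995 to 5775 CPM of total counts in WT and 4009 to 4041 CPM in KO libraries. The 7 fibroblast or feeder markers summed to 34.4 to 62.3 CPM in WT and 43.2 to 51.7 CPM in KO libraries, and 4 of them (Col3a1, Dcn, Lum and Postn) had no more than 3 reads in any library. The 5 neural markers summed to 84.7 to 89.1 CPM in WT and 85.1 to 104 CPM in KO libraries, the 5 mesoderm markers to 3.66 to 8.75 and 7.70 to 13.0 CPM, and the 5 endoderm markers to about 25.3 in both WT libraries and 12.1 to 19.8 CPM in KO libraries. Within these sums single markers moved in opposite directions. Of 24 markers tested, 2 were called higher and 3 lower, beside 11% and 10.7% of all genes tested. Zfp42, a marker of naive pluripotency on chromosome 8, had 945 and 697 TMM-normalized CPM in WT and 134 and 129 in KO libraries (log2 fold change -2.64, edgeR adjusted p = 0.000704). Pou5f1, Sox2 and Esrrb also lay lower in both KO libraries (log2 fold changes -0.42, -0.53 and -0.79) without a call, and the genotypes overlapped for Nanog. Dppa5a and Utf1 lay higher in both KO libraries (0.27 and 0.48) and were not called. Sox7 carried the lower endoderm sum, with 17.9 and 9.27 CPM in WT and 0.257 and 0.924 CPM in KO libraries (-4.48, adjusted p = 0.00434), and Gata4 and Gata6 lay higher in both KO libraries without a call. The other calls were Sox1 at -2.34, Neurod1 at 2.03 and Col1a1 at 1.29. In bulk RNA, a change in the share of cells that express a gene cannot be told apart from a change per cell. The part of these markers in the values of the 10 genes was not tested.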

How the data were processed

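RNA-seq of 2 WT and 2 Npac KO libraries of E14 cells was analysed. The authors mapped paired-end reads of 150 bases and deposited raw counts of reads per gene. The submitters' processing notes name HISAT2 2.0.5, featureCounts 1.5.0-p3 and build mm10, while another version of the aligner stands in the study's methods. The gene coordinates in the deposited tables match GENCODE M21 on GRCm38 at both ends for 1472 of 52073 shared genes and for 0 of the 10 genes studied, so those coordinates serve only to find chromosomes, neighbours and overlaps, and positions are printed from GRCm38 references. The authors also deposited FPKM values, which for 100% of genes lie within 0.1% of reads over listed length and a library divisor of 0.961 to 1.06 times the total.

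Counts were tested in R 4.3.3 with edgeR 4.0.16 (filterByExpr, TMM, quasi-likelihood test, Benjamini-Hochberg adjustment over 18157 genes) and called where the adjusted p was under 0.05 with over 1.5-fold change, thresholds taken from the study's methods. Standard errors are the log2 fold change over the square root of F. The common biological coefficient of variation was 0.235. The test was checked on simulated data in which all genes had the same dispersion, a simpler setting than that of these libraries. The alternatives used DESeq2 1.42.0, upper-quartile factors, other count filters, protein-coding genes, a replicate block, limma-trend 3.58.1 on log2(FPKM + 1) and log2(FPKM + 0.1), removal of chromosome medians (chromosomes with at least 50 tested genes), and each library left out. Copies of listed genes were sought with blastn 2.17.0+ among GENCODE transcripts, at 90% identity over 300 bases or more. The 10 genes, the lists and the tests were chosen with earlier results of these data known. The named genes are the 10, the called genes of the wider list, overlapping genes, the 3 tested genes on each side of Glyr1 and the 5 most like it. Kdm1a, Kdm4d and copies of the 10 genes were named in addition, after their values were seen, and markers were taken from lists of cell types. RefSeq start regions were found for 4 of the 10 genes. Intervals cover the spread the model sees between libraries.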

Additional observations from a re-analysis of the deposited data

How the results depend on the processing

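The fall of Glyr1 kept its direction and its call in all 10 other settings (log2 fold change -2.17 to -1.95) and with each library left out (-2.39 to -1.87). The value of Kdm2b was positive in all of them and was called in 8 of 10 settings. Its value was 0.59 (adjusted p = 0.0736) and 0.67 (adjusted p = 0.0664) in limma-trend fits of log2(FPKM + 1) and log2(FPKM + 0.1), where the number of the 10 genes called higher was 0, and with a library left out it lay between 0.60 and 0.77 and that number between 0 and 1. The cause was not tested. None of the other 8 genes was called in any setting. Near 0, signs changed. Setd2 was at -0.0017 with DESeq2 and -0.028 with protein-coding genes only (leave-one-out range -0.17 to 0.16), Kdm2a was at 0.025 with upper-quartile factors, 0.012 and 0.019 in the FPKM fits, and 0.050 with chromosome medians removed (-0.34 to 0.37), and Nsd3 was at -0.45 with chromosome medians removed (-0.12 to 0.22). With a library left out Nsd1 ranged from -0.55 to 0.38 and Ash1l from -0.52 to 0.41. Of the wider list 3 genes were called lower in the fit of log2(FPKM + 1), and with a library left out 2 to 8 were called lower and 4 to 10 higher. Over all genes, 3074 were called higher and 3090 lower at an unadjusted p, and with a library left out 826 to 3571 higher and 821 to 3384 lower; the lowest counts came without a KO library and the highest without WT2. WT and KO libraries share replicate numbers but nothing says that a number marks a shared batch, and only 2 pairs exist. The differences WT1 - WT2 and KO1 - KO2 correlated at 0.332 over the genes tested. With the replicate number as a block, 3128 genes were called higher and 2994 lower, Kdm2a was at 0.023, and the same 2 of the 10 genes were called. The 10 genes had at least 373 reads per library. With 2 libraries per genotype, only the intervals of Setd2 and Nsd3 lay within a 1.5-fold change both ways in the fit that gave the values of the report. With chromosome medians removed, Setd2 was at 0.20 (standard error 0.19) and Nsd3 at -0.45 (standard error 0.20), so that bound is not claimed there.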
